A study of Equus asinus with 6 samples.

Results

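Fibro-adipogenic progenitors are connective tissue cells that lie between the fibres of skeletal muscle and are known for their ability to become fibroblasts or fat cells. The 10 transcripts described here, PDGFRA, THY1, DCN, LUM, DPP4, PI16, MFAP5, GSN, TCF7L2 and OSR1, were taken by gene symbol as markers of these cells, and all 10 were among the 20873 genes of the deposited count table. They were counted in the longissimus dorsi, a long back muscle, from Guangling donkeys, a Chinese breed of Equus asinus, aged 24 months. The groups were muscle of high intramuscular fat (IMF) content, with 3 libraries, and muscle of low IMF content, with 3 libraries. All 6 libraries share breed, age and muscle. Neither the measured fat content nor the sex of the animals is stated, and the labels do not say whether each library is another animal, so p-values reflect the spread between libraries, which may be technical.

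The receptor PDGFRA binds platelet-derived growth factors and is the surface protein by which these cells are usually sorted from muscle. The cells secrete much of the loose matrix around muscle fibres, and when muscle takes up fat they are regarded as the main source of the new fat cells. Several of the markers are shared with other cells. GSN and TCF7L2 are also made by muscle fibres and many other tissues, and DCN, LUM and THY1 by fibroblasts in general.

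The libraries held 39052998 to 47494157 assigned reads. Values are given as CPM, the reads of a gene scaled to a common library total with trimmed-mean (TMM) factors, and levels of different genes are compared as FPKM, which also divides by gene length. All 10 markers had reads in every library, with 10 reads of DPP4 in low IMF replicate 1 as the fewest. The muscle fibre genes CKM and ACTA1 were at 20880 CPM or more in every library, as the tissue label implies. Low IMF replicates 2 and 3 resembled each other more than the libraries of any other pair within a group. The chi-square of their counts per degree of freedom was 7.7, above the value near 1 that sampling noise gives, against 193 to 560 for the other 5 pairs. They were used as the separate samples their labels give, which these counts cannot show them to be. With the counts of both summed as 1 sample, edgeR called 0 markers, and 9 of 10 had a positive log2 fold with a median of 0.87. In that fit THY1 had a fold of 2.37 (edgeR unadjusted p = 0.0335), and its adjusted p was 0.999, as for every marker.

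No marker passed the test between high and low IMF muscle with all 6 libraries. In edgeR 0.0% of 15933 genes passed and in DESeq2 1.16% of 16775. The markers differed widely from library to library within each group. For 8 of the 10 markers high IMF replicates 1 and 2 both lay above all low IMF libraries (16.2% of all genes tested). For 8 of 10 the lowest libraries were high IMF replicate 3 and low IMF replicate 1 (11% of all genes). The library with the least PDGFRA, DCN, LUM, MFAP5, GSN and TCF7L2 was thus labelled high IMF. In bulk muscle, fewer cells of a type and less RNA per cell cannot be told apart.

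PDGFRA measured 29.4, 34.3 and 5.42 CPM in high IMF replicates 1 to 3 and 8.07, 25 and 24.7 CPM in low IMF replicates 1 to 3. The third high IMF library was the lowest of all 6 libraries, low IMF replicate 1 was next, and the groups overlapped. The fitted high over low fold was 1.2 with a 95% interval of 0.397 to 3.61 (edgeR's quasi-likelihood test, adjusted p = 0.97). The highest library was 6.34-fold above the lowest, and both belonged to the high IMF group.

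THY1, a glycolipid-anchored surface protein of fibroblasts and other stromal cells, measured 93.8, 89.8 and 34.2 CPM in high IMF muscle and 25.5, 33.5 and 37.7 CPM in low IMF muscle. High IMF replicates 1 and 2 stood far above the other 4 libraries, while the third high IMF library fell inside the span of the low ones. Its fold of 2.25 (95% interval 1.22 to 4.17) was the highest of the 10 markers. It was the 1 marker with an unadjusted p under 0.05 in edgeR. It did not pass the adjustment over all genes (edgeR adjusted p = 0.571). The authors' deposited table gives an adjusted p of 0.136. Of all genes tested 7.27% had an unadjusted p under 0.05, and 4.53% had one and were higher in high IMF muscle. Of the libraries left out in turn, high IMF replicate 3 moved THY1 most. Without that library the fold was 2.84 with an adjusted p of 0.206 in edgeR.

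DPP4, a surface peptidase that marks early progenitors in several tissues, was the rarest of the markers. It measured 1.22, 1.63 and 0.464 CPM in high IMF muscle and 0.208, 0.655 and 0.875 CPM in low IMF muscle. These values rest on 55, 87, 16, 10, 27 and 36 reads, and counting error alone puts the 10 reads of low IMF replicate 1 between 4.8 and 18.4 (exact 95% Poisson interval). The groups overlapped, with high IMF replicate 3 below low IMF replicates 2 and 3. The fold was 1.92 (95% interval 0.636 to 5.78, edgeR adjusted p = 0.867).

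PI16, a secreted protein that together with DPP4 marks the fibroblasts found in the connective tissue of many organs, measured 122.8, 91.3 and 34.2 CPM in high IMF muscle and 13.8, 43.7 and 63.1 CPM in low IMF muscle. Low IMF replicate 1 was lowest, and low IMF replicates 2 and 3 lay above high IMF replicate 3. The fold of 2.06 had a 95% interval of 0.757 to 5.6 (edgeR adjusted p = 0.82). Between the lowest and the highest library PI16 spanned 8.91-fold, the widest span of the 10 markers, followed by MFAP5 with 8.68-fold.

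**Figure D1:**
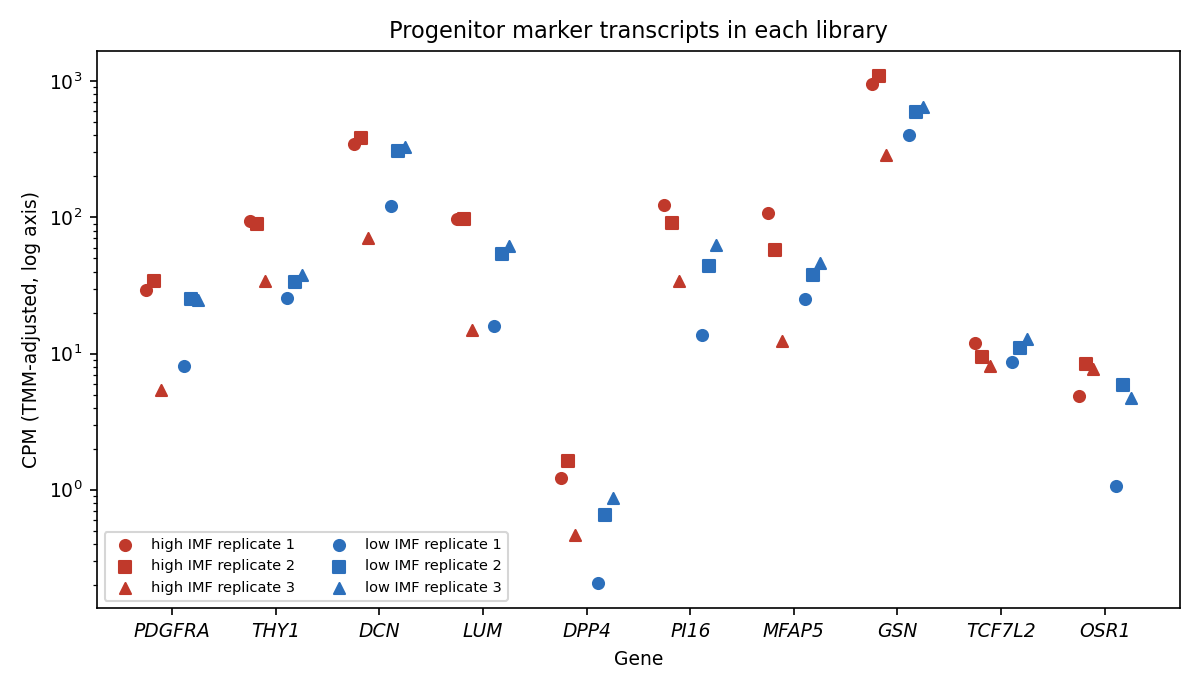
Level of each of the 10 progenitor markers in every library, in CPM on a log axis, with high IMF libraries in red and low IMF libraries in blue and 1 point per library. High IMF replicate 3 (red triangle) and low IMF replicate 1 (blue circle) lie lowest for most markers, as for PDGFRA at 5.42 and 8.07 CPM, and the groups overlap for all 10.

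Decorin (DCN) and lumican (LUM) are small leucine-rich proteoglycans that coat collagen fibrils. Their genes lie next to each other in the donkey RefSeq annotation of assembly EquAss-T2T_v2, in a run with the related genes KERA and EPYC. DCN measured 348.1, 385.8 and 70.9 CPM in high IMF muscle and 120.5, 308.4 and 331.2 CPM in low IMF muscle. Low IMF replicates 2 and 3 came close to high IMF replicates 1 and 2, and high IMF replicate 3 was lowest. Its fold was 1.06 (95% interval 0.378 to 2.97, edgeR adjusted p = 0.988), and the sign was not stable, since limma-voom gave a log2 fold of -0.17.

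LUM measured 97.8, 97.8 and 14.8 CPM in high IMF muscle and 15.9, 53.4 and 61.2 CPM in low IMF muscle. The order of the libraries was nearly that of DCN, but low IMF replicates 2 and 3 reached a smaller part of the level of high IMF replicates 1 and 2. The fold was 1.61 (95% interval 0.491 to 5.31, edgeR adjusted p = 0.919). Per read of DCN there were 0.281, 0.254 and 0.209 reads of LUM in high IMF muscle and 0.132, 0.173 and 0.185 in low IMF muscle. All 3 high IMF libraries thus had more LUM per DCN than any low IMF library, a pair picked after its values were seen and given with no test.

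MFAP5, a glycoprotein of the microfibrils that carry elastin, measured 107.2, 58.0 and 12.3 CPM in high IMF muscle and 25.3, 37.8 and 46.1 CPM in low IMF muscle. High IMF replicate 1 was highest and high IMF replicate 3 lowest, so that the low IMF libraries lay inside the high IMF range. The fold of 1.63 (95% interval 0.557 to 4.75, edgeR adjusted p = 0.906) depended on high IMF replicate 1, without which the log2 fold of 0.70 was -0.05.

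GSN, the actin-severing protein gelsolin, had the highest level of the 10. It measured 955.8, 1090 and 285.9 CPM in high IMF muscle and 402.3, 595.8 and 646.4 CPM in low IMF muscle. High IMF replicate 3 was below every low IMF library and the other high IMF libraries were above them. The fold was 1.42 (95% interval 0.649 to 3.1, edgeR adjusted p = 0.908).

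TCF7L2, a transcription factor of the WNT pathway that marks the connective tissue fibroblasts of muscle, varied least. It measured 11.9, 9.44 and 8.05 CPM in high IMF muscle and 8.71, 10.9 and 12.8 CPM in low IMF muscle, so that all 6 lay within 1.59-fold. It was the 1 marker with a fold below 1, at 0.905 (95% interval 0.618 to 1.32, edgeR adjusted p = 0.948). That direction reversed with scaling by library size only, where its log2 fold was 0.03.

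OSR1, a zinc finger transcription factor that marks progenitors of muscle connective tissue in the embryo and is re-expressed after injury, measured 4.88, 8.37 and 7.68 CPM in high IMF muscle and 1.06, 5.89 and 4.69 CPM in low IMF muscle. Unlike the other markers it was above its own mean over the 6 libraries (log2 scale) in high IMF replicate 3, which held the second highest level. It was lowest in low IMF replicate 1. Low IMF replicate 2 lay above high IMF replicate 1, so the groups overlapped. The fold was 1.8 (95% interval 0.708 to 4.57, edgeR adjusted p = 0.854), and without low IMF replicate 1 the log2 fold of 0.85 was 0.39.

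Per gene length, the markers ranged over more than 3 orders of magnitude. Mean deposited FPKM over the 6 libraries was 264.0 for GSN, 131.1 for DCN, 29.6 for THY1, 27.6 for PI16, 26.8 for LUM, 19.8 for MFAP5, 3.24 for PDGFRA, 3.14 for TCF7L2, 0.978 for OSR1 and 0.198 for DPP4. GSN stood above DCN, and DCN above THY1, in 6 of 6 libraries. THY1, PI16 and LUM could not be ordered, since THY1 exceeded PI16 in 3 of 6 libraries and PI16 exceeded LUM in 2 of 6. PDGFRA and TCF7L2 likewise changed places, with PDGFRA higher in 3 of 6. The receptor that defines the cell type was thus a transcript of middling level, above 48.4% of the genes tested by mean FPKM, and DPP4 was above 7.73%.

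High was compared with low IMF muscle to ask whether the markers follow fat content. Of the 10, 0 passed an adjusted p of 0.05 in edgeR, where 0.0% of 15933 genes passed, and 0 passed in DESeq2, where 1.16% of 16775 genes passed, or in limma-voom, where 0.0% passed. At an unadjusted p under 0.05 there was 1 marker in edgeR and 1 in limma-voom (6.97% of all genes), THY1 in both. A positive log2 fold was found for 9 of the 10 markers and for 51.2% of all genes tested. The median log2 fold was 0.70 over the markers and 0.01 over all genes tested. With library size only in place of TMM, the median of all genes moved to 0.15 and that of the markers to 0.96. None of the 10 had groups that did not overlap, where 13.0% of all genes had, 6.86% with the high group above. The 95% intervals of all markers but THY1 included a fold of 1, and they were wide: that of LUM ran from 0.491 to 5.31.

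The position of single libraries set these values. High IMF replicates 1 and 2 both lay above all 3 low IMF libraries for 8 of 10 markers, against 16.2% of all genes tested. The third high IMF library lay below all 3 low ones for 6 of 10, against 29.6% of all genes. It was the lowest of all 6 libraries for 6 of 10 (21.9% of all genes), and low IMF replicate 1 for the other 4 (21.1%). High IMF replicate 3 and low IMF replicate 1 were the lowest libraries for 8 of 10 markers, against 11% of all genes. With high IMF replicate 3 left out, the markers' median log2 fold was 1.03, and 9 of 10 were positive (50.6% of all genes). It was 0.35 when high IMF replicate 1 or low IMF replicate 1 was left out, and 0.45 when high IMF replicate 2 was. In DESeq2 without high IMF replicate 3, 2 markers passed, where 3.64% of 17120 genes passed. They were THY1 (2.83-fold, adjusted p = 1.04e-06) and GSN (1.85-fold, adjusted p = 0.0417). The DESeq2 fits with a library left out were added after the data were seen. This one removes the high IMF library that was lowest for 6 of 10 markers, so its p-values are no support for a difference. With any other library left out, DESeq2 called 0 markers. The edgeR fit without high IMF replicate 3 called 0 markers and 0 genes, with 12.5% of genes at an unadjusted p under 0.05.

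**Figure D2:**
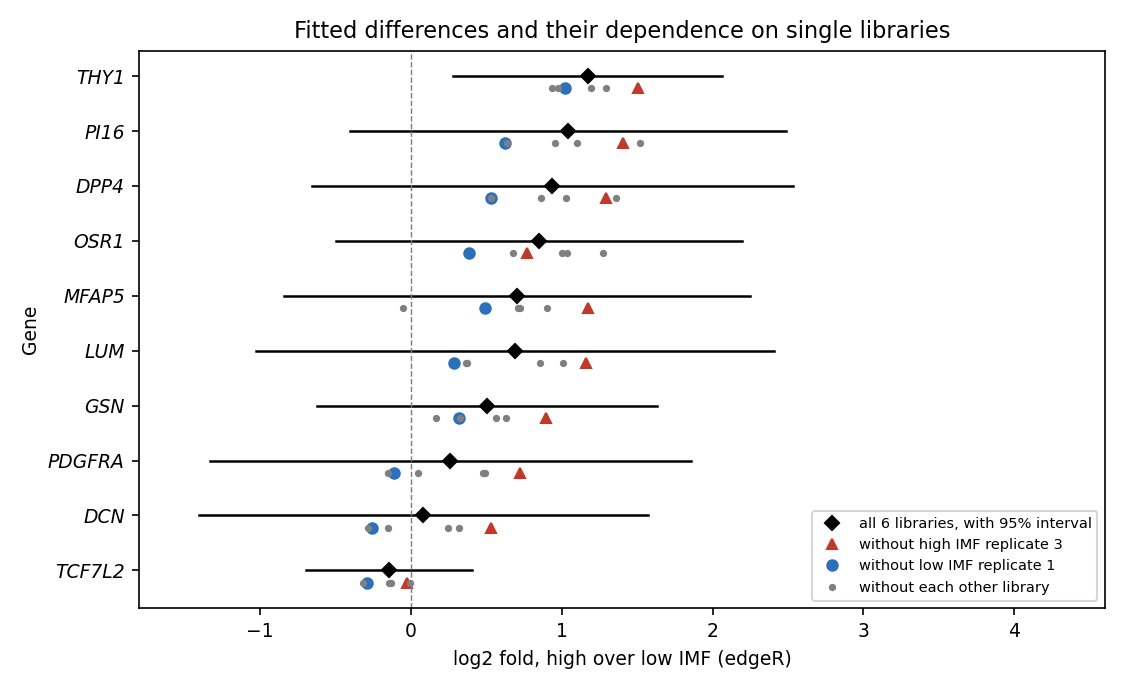
Fitted log2 fold, high over low IMF, of each marker with its 95% interval (diamonds and bars, edgeR, all 6 libraries), and the fold with 1 library left out (small symbols). THY1 is the 1 marker whose interval leaves out 0, and the red triangles, without high IMF replicate 3, lie above the full fit for 9 of the 10 markers, with OSR1 as the exception.

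Within the groups the markers varied more than most genes. On the log2 scale (CPM plus 0.5) the median over the markers of the pooled within-group SD was 0.93, against a median of 0.30 over all genes tested. For 7 of the 10 markers this SD lay in the top 10% of all genes. LUM (1.32), PDGFRA (1.19) and MFAP5 (1.16) had the largest values and TCF7L2 the smallest (0.27). Differences of this size within groups of 3 leave room for sizeable differences between groups that could not be detected here.

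To ask whether the markers moved together, the reads of each were divided by those of PDGFRA in the same library, a ratio that no scaling between libraries can alter. DCN followed PDGFRA most closely. There were 11.8, 11.2 and 13.1 reads of DCN per read of PDGFRA in high IMF muscle and 14.9, 12.3 and 13.4 in low IMF muscle, a range of 0.41 on the log2 scale, while PDGFRA itself spanned 6.34-fold. Of 15932 genes tested against PDGFRA in this way DCN had the smallest range, and the median range over all genes was 2.92. LUM had the 16th smallest range (0.75), GSN the 88th (1.15) and MFAP5 the 137th (1.27). The others followed PDGFRA less closely. DPP4 ranked 489 (1.73), PI16 715 (1.88), THY1 1693 (2.24) and TCF7L2 2787 (2.44). OSR1 had a range of 3.43, above that of 78.4% of all genes, with 0.166, 0.244 and 1.42 reads per read of PDGFRA in high IMF muscle and 0.132, 0.236 and 0.19 in low IMF muscle. High IMF replicate 3 alone set that width.

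LUM, DPP4 and PI16 had more reads per read of PDGFRA in all 3 high IMF libraries than in any low IMF library. This held for 3 of 9 markers and for 0.91% of all genes. The ratios of all genes had a median range of 2.92, while LUM, DPP4 and PI16 had narrower ranges of 0.75, 1.73 and 1.88. The 9 ratios also share 1 denominator. The share over all genes is thus not a like comparison, and no conclusion is drawn from it. LUM gave 3.32, 2.85 and 2.73 reads per PDGFRA read in high IMF muscle and 1.97, 2.13 and 2.47 in low IMF muscle. PI16 gave 4.17, 2.66 and 6.31 against 1.71, 1.75 and 2.55, so that the closest libraries of the groups differed little. DPP4 gave 0.0413, 0.0475 and 0.0856 against 0.0258, 0.0262 and 0.0354. Its closest libraries were high IMF replicate 1, with 55 reads of DPP4, and low IMF replicate 3, with 36. The exact Poisson intervals of these reads, 41.4 to 71.6 and 25.2 to 49.8, overlapped. The order of these libraries, and with it the separation of the groups for DPP4, was thus within counting error. The difference of group means on the log2 scale was 0.44 for LUM, 1.07 for PI16 and 0.94 for DPP4 (exact permutation test, two-sided, p = 0.1 for each, the smallest that 3 against 3 libraries allow, and 0.3 after Benjamini-Hochberg adjustment over the 9 ratios). For the other 6 ratios the exact permutation p was 0.2 to 0.8. THY1 per PDGFRA differed by 1.01 (exact permutation p = 0.2), with low IMF replicate 1 (3.16 reads per PDGFRA read) above high IMF replicate 2 (2.61). DCN per PDGFRA differed by -0.17 (exact permutation p = 0.2).

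**Figure D3:**
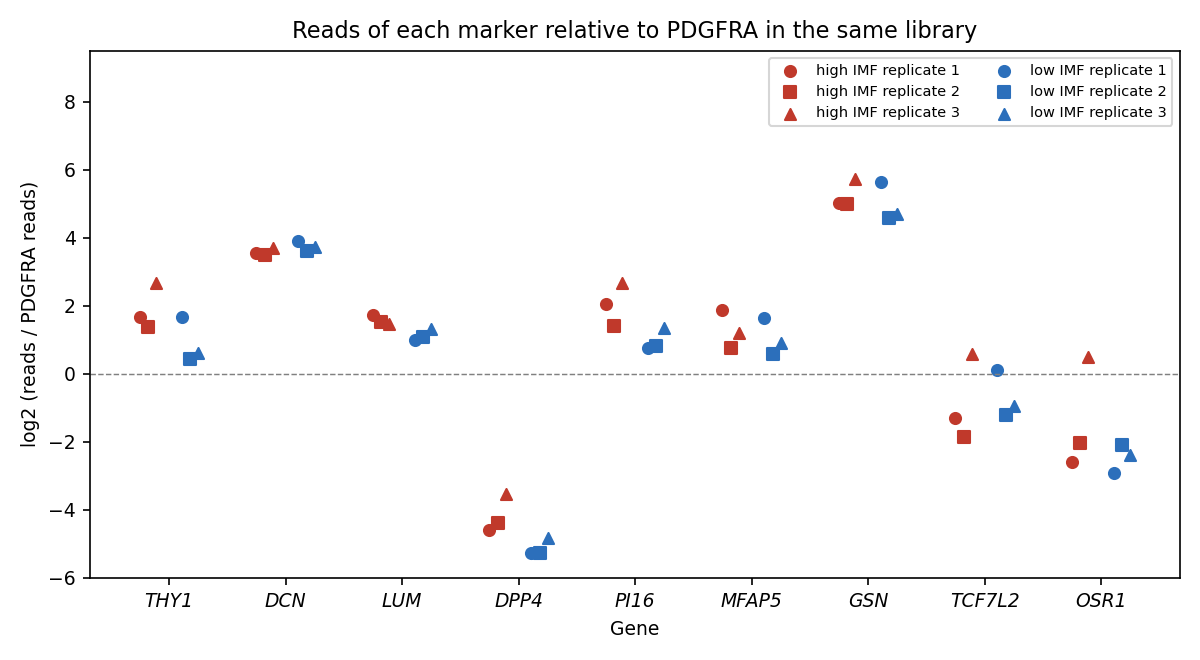
Reads of each of 9 markers relative to those of PDGFRA in the same library, as log2, with high IMF libraries in red and low IMF libraries in blue. DCN stays within 0.41 over all 6 libraries, LUM, DPP4 and PI16 show the 3 red points above the 3 blue points, and OSR1 is spread by high IMF replicate 3.

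Other genes of the same pathways and protein families were read from 9 lists, which together held 111 tested genes. In edgeR 0 of the 111 passed (0.0% of all genes), and the smallest adjusted p was 0.504. An unadjusted p under 0.05 was found for 16 with higher and 1 with lower values in the high group. That is 15.3% of the 111 against 7.27% of all genes tested. The lists were chosen with earlier results of these data known, so these shares were given no test. In DESeq2, where 1.16% of all genes passed, 4 passed, all higher: CD55, CD248, MEOX1 and DPP8.

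Fibroblast genes other than the markers had a positive log2 fold in 30 of 35, with a median of 0.45 and 4 at an unadjusted p under 0.05. Leaving out high IMF replicates 1, 2 and 3 in turn gave medians of 0.22, 0.25 and 0.80. COL1A1, a chain of type I collagen, measured 166.1, 129.5 and 33.1 CPM in high IMF muscle and 35.9, 39.0 and 48.0 CPM in low IMF muscle. MFAP4, an elastic fibre protein that also stands in the microfibril list, measured 65.4, 72.4 and 19.6 against 21.3, 24.4 and 25.9 CPM. Both had high IMF replicates 1 and 2 high and high IMF replicate 3 below every low IMF library, the pattern of GSN (edgeR adjusted p = 0.626 and 0.639).

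The small leucine-rich proteoglycans other than DCN and LUM had a positive log2 fold in 8 of 9, with a median of 0.43. The median rested on single libraries, at 0.0215 and 0.81 with high IMF replicates 2 and 3 left out in turn and 0.27 with low IMF replicate 1 left out, and it was 0.18 in limma-voom and 0.19 with the replicate block. ASPN, which binds collagen as decorin does, measured 18.2, 9.08 and 1.45 CPM in high IMF muscle and 1.67, 2.81 and 3.21 CPM in low IMF muscle (edgeR adjusted p = 0.665). PRELP, an anchor of basement membranes to connective tissue, measured 54.3, 48.9 and 17.2 against 11, 30.3 and 30.3 CPM (edgeR adjusted p = 0.86). In the microfibril list around MFAP5, 12 of 14 had a positive log2 fold (median 0.33, and 0.21 and 0.55 without high IMF replicates 1 and 3), with 1 gene, MFAP4, at an unadjusted p under 0.05. MFAP2, a microfibril glycoprotein like MFAP5, measured 7.16, 4.17 and 0.956 against 1.17, 1.19 and 2.36 CPM (edgeR adjusted p = 0.751). The ligands and the other receptors of the platelet-derived growth factor family were positive in 6 of 6 with a median of 0.18 and none at that level. Leaving out high IMF replicates 2 and 3 in turn gave 0.0724 and 0.31, and leaving out low IMF replicate 2 gave 0.27. The receptor-like PDGFRL measured 8.75, 13.1 and 7.82 against 6.96, 9.68 and 9 CPM (edgeR adjusted p = 0.934). The ligand PDGFC measured 10.4, 7.82 and 6.89 against 6.27, 6.33 and 6.06 CPM, without overlap (edgeR adjusted p = 0.761).

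Genes that accompany PI16 and DPP4 in fibroblasts of many organs had a positive log2 fold in 10 of 14, with a median of 0.58, and an unadjusted p under 0.05 was reached by 4 with higher and 1 with lower values. The median of this list was 0.0601 and 0.37 with high IMF replicates 1 and 2 left out in turn. CD248, a surface protein of stromal cells also known as endosialin, measured 32.7, 21.8 and 14.4 CPM in high IMF muscle and 9.46, 9.41 and 10.4 CPM in low IMF muscle without overlap. It passed in DESeq2 (adjusted p = 0.0299) and did not in edgeR (2.36-fold, adjusted p = 0.51). Unlike most of the markers, CD248 was higher in high IMF replicate 3 than in low IMF muscle. It was named for its small unadjusted p in edgeR, which favours such genes, so nothing is read from this contrast. Over the whole list, the median log2 CPM (plus 0.5) relative to each gene's mean was lowest in high IMF replicate 3 (-0.43). The list's summed CPM was 903.3 in that library and 687.6 to 752.3 in low IMF muscle. The chemokine scavenger ACKR3 measured 47.3, 42.0 and 58.9 against 23.7, 34.2 and 30.4 CPM, also without overlap (edgeR adjusted p = 0.523). CD55, a complement inhibitor on the cell surface named here because it passed in DESeq2 (adjusted p = 0.0375), owed its mean to high IMF replicate 1, at 20.8 CPM, with 0.813 to 3.23 CPM in the other 5 libraries (edgeR adjusted p = 0.584).

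Around OSR1, 6 of 9 tested factors of muscle connective tissue had a positive log2 fold. MEOX1, a homeobox factor of the somite, measured 52.5, 64.8 and 54.3 CPM in high IMF muscle and 12.4, 26.6 and 28.9 CPM in low IMF muscle, without overlap. It passed in DESeq2 (adjusted p = 0.0199) and did not in edgeR (2.53-fold, adjusted p = 0.51). PRRX2, a homeobox factor of mesenchyme, measured 8.18, 18.3 and 7.88 against 3.19, 5.97 and 5.11 CPM (edgeR adjusted p = 0.568). Like OSR1, MEOX1 and PRRX2 were not at their lowest in high IMF replicate 3, and all 3 were lowest in low IMF replicate 1. MEOX1 and PRRX2 were named for their small unadjusted p in edgeR, which favours such an order, so nothing is read from the likeness. Over the whole list, summed CPM was lowest in high IMF replicate 3 (220.8) and was 278.9 in low IMF replicate 1. The list's median log2 CPM (plus 0.5) relative to each gene's mean was lowest in low IMF replicate 3 (-0.28).

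The partners of TCF7L2 in WNT signalling were evenly divided, with a positive log2 fold in 8 of 16 and a median of 0.00. BCL9L, a co-activator of beta-catenin, measured 81.5, 88.0 and 86.2 against 65.9, 64.3 and 65.8 CPM, and the co-repressor TLE3 22.6, 17.3 and 14.1 against 11.2, 12.5 and 13.5 CPM, both without overlap (edgeR adjusted p = 0.603 and 0.65). In the gelsolin family other than GSN, 5 of 6 had a positive log2 fold. CAPG, which caps actin filaments, measured 5.59, 4.26 and 2.81 against 2.59, 1.26 and 1.6 CPM, and AVIL 10.1, 4.71 and 5.79 against 4.32, 2.81 and 2.6 CPM, both without overlap (edgeR adjusted p = 0.571 and 0.591). Of the peptidases related to DPP4, 5 of 8 had a positive log2 fold. The cytosolic DPP8 measured 147.9, 149.8 and 218.7 against 92.7, 91.1 and 89.6 CPM without overlap and passed in DESeq2 (adjusted p = 0.0216) but not in edgeR (1.89-fold, adjusted p = 0.504). PRCP measured 19.4, 12.2 and 8.63 against 8.07, 9.41 and 8.02 CPM (edgeR adjusted p = 0.729).

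Markers of other cells also differed between the libraries in which the progenitor markers stood apart. The library level of a list is the median over its tested genes of log2 CPM (plus 0.5), taken relative to each gene's average across all 6 libraries. For the progenitor markers it was 0.70, 0.83 and -0.80 in high IMF muscle and -0.86, 0.04 and 0.28 in low IMF muscle. For 9 tested of 10 adipocyte genes it was 0.74, 2.56 and -0.90 in high IMF muscle and -1.98, 0.11 and -0.13 in low IMF muscle, so that the same libraries were at the top and at the bottom. ADIPOQ, a hormone of fat cells, had 1370, 8803 and 206 reads in high IMF muscle and 145, 2052 and 1507 reads in low IMF muscle. The summed CPM of the 10 adipocyte genes was 350.3 to 838.1 in high IMF muscle and 472.0 to 518.3 in low IMF muscle, and PLIN4, at 199.6 to 345.5 CPM, followed another order.

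Macrophage genes (10 tested of 11) had levels of 1.86, 0.33 and -0.86 in high IMF muscle and -0.39, -0.36 and -0.26 in low IMF muscle, with summed CPM of 44.7 to 298.7 and 58.6 to 68.8. Lymphocyte genes (11 of 12) had levels of 1.09, 0.21 and 0.11 against -0.06, -0.63 and -0.73, with summed CPM of 20.2 to 48.1 and 8.75 to 17.7. Muscle fibre genes (14 of 14) were at -1.15, -0.31 and 0.58 in high IMF muscle and 0.19, 0.45 and 0.29 in low IMF muscle. Their sums were 129400 to 245400 and 173600 to 250500 CPM. Within high IMF muscle they were highest in replicate 3, where the progenitor markers were lowest. Within low IMF muscle both lists were lowest in replicate 1. Endothelial genes (9 of 9) had levels of 0.15, -0.15 and -0.59 against 0.35, 0.18 and 0.13, with sums of 481.4 to 919.1 and 885.5 to 1035 CPM. Low IMF replicate 1, low in progenitor markers, was highest in the endothelial genes.

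Smooth muscle and pericyte genes (10 of 10) had sums of 817.9 to 1093 in high IMF muscle and 1103 to 1658 CPM in low IMF muscle, and satellite cell genes (6 of 7) 104.8 to 155.3 and 123.9 to 135.8 CPM. Schwann cell genes (8 of 8) had sums of 37.9 to 246.2 and 126.2 to 194.2 CPM. The defining tendon gene TNMD had 0 reads in 5 libraries and 4 reads in low IMF replicate 3, while 6 tested tendon genes of the 9 listed, together with the untested ones, summed to 356.8 to 473.7 and 224.3 to 248.5 CPM. Epithelial and mesothelial genes (2 tested of 7 listed) summed to at most 4.4 CPM in any library, and EPCAM had 0 reads in 4 libraries. The part of these cell types in the differences of the progenitor markers was not tested.

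**Figure D4:**
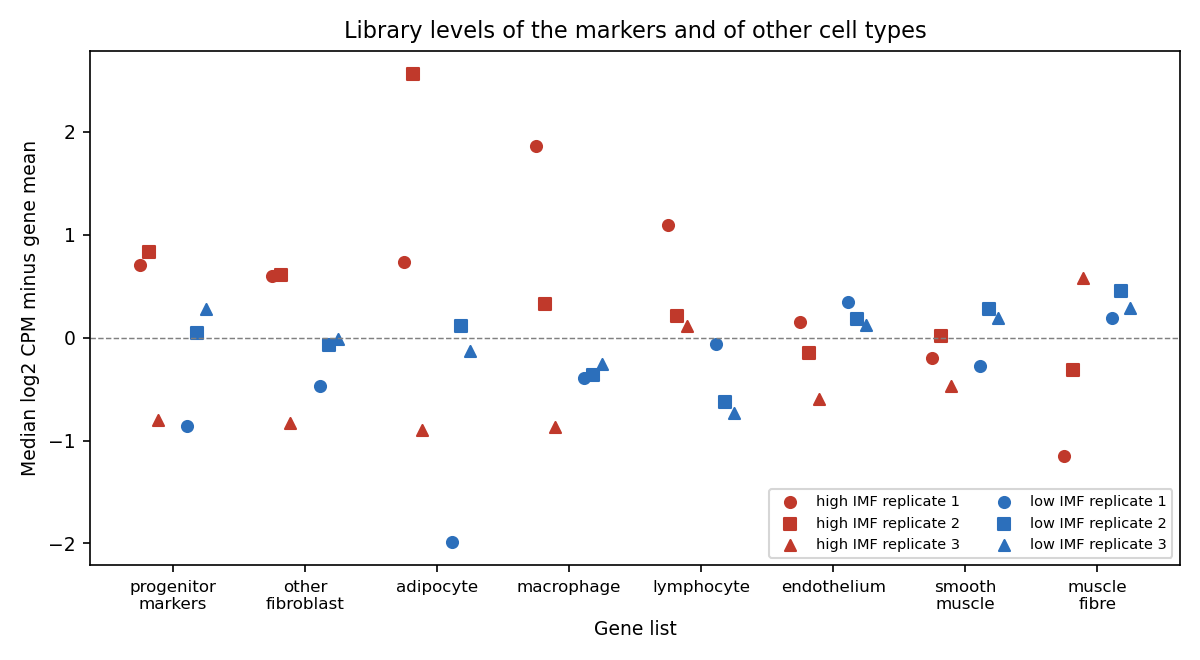
Median level of the 10 progenitor markers and of 7 other gene lists in each library, as log2 CPM (plus 0.5) minus each gene's mean over the 6 libraries, with high IMF libraries in red and low IMF libraries in blue. The adipocyte genes have the progenitor markers' libraries at top and bottom (2.56 in high IMF replicate 2, -1.98 in low IMF replicate 1), and the muscle fibre genes are lowest in high IMF replicate 1 (-1.15).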

How the data were processed

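RNA of 6 muscle libraries was measured. Groups and replicate numbers were taken from the sample titles. The deposited counts are whole reads per gene that the authors assigned before deposit. HISAT2 and the genome build mm9, a mouse build, are named per the submitters' processing notes, although the listed gene names match donkey RefSeq, so the build is uncertain and no coordinates are given. Which counter was run, whether it used strand and how it split reads between gene copies: not given in the sources used here. Levels between genes were compared by the authors' deposited FPKM only. The authors' own comparison gives a fold (ratio of high over low), a log2 fold and p-values, as deposited, and is used where that table is named. The single-library and series count tables differed in 0 cells.

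Counts were tested with edgeR 4.0.16 in R 4.3.3 (quasi-likelihood F-test, TMM, filterByExpr defaults, 15933 genes), adjusted over all genes by Benjamini-Hochberg at 0.05. All 10 markers passed the filter. The SE was taken from the F statistic. DESeq2 1.42.0, limma-voom (limma 3.58.1), other scalings and filters, a replicate block, low IMF replicates 2 and 3 summed as 1 sample, and each library left out were alternatives. The edgeR script was tested on simulated data. Intervals of reads cover counting error only, and a count of 0 allows up to 3 reads (0.0632 to 0.0768 CPM). For names, 876 LOC numbers were matched by gene identifier to RefSeq (EquAss-T2T_v2). The markers, lists and tests were chosen with earlier results of these data known. All 10 markers are named, with up to 2 genes of smallest unadjusted p from each of 9 related lists and up to the first 3 genes of each of 10 cell-type lists. Genes outside this rule, named after their values were seen, are CD55 and those in the closing section.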

Additional observations from a re-analysis of the deposited data

How the results depend on the processing

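Of the alternatives run on all 6 libraries, 1 changed the number of called genes. DESeq2's Wald test found 114 genes higher and 80 lower, where edgeR found 0 and 0 (1158 at an unadjusted p under 0.05); its calls within the related lists were 2 for PI16 and DPP4, 1 for OSR1 and 1 for the peptidases. With single libraries left out, edgeR called 0 higher and 0 to 3 lower (3 without high IMF replicate 1). DESeq2, added after seeing the data, then called 150, 61 and 396 higher and 151, 70 and 227 lower without high IMF replicates 1, 2 and 3, and 274, 28 and 37 higher and 156, 33 and 36 lower without low IMF replicates 1, 2 and 3. The markers called were 0 to 2, the 2 being THY1 and GSN in DESeq2 without high IMF replicate 3. The markers' median log2 fold was 0.37 to 0.96 on all libraries and 0.35 to 1.03 with single libraries left out. Log2 folds changed sign for DCN in limma-voom (-0.17) and for TCF7L2 with library size only (0.0305). With the replicate number as a block (replicate block), DCN was at -0.0612, the markers' median at 0.46 and 0 genes were called. Same-numbered libraries deviated together with r = 0.196, 0.149 and 0.0197. Differently numbered libraries had r of -0.216 to 0.206, the largest for high IMF replicate 2 with low IMF replicate 3. The numbers were thus not taken as pairs. Left-out libraries gave log2 folds of -0.15 to 0.72 for PDGFRA, -0.28 to 0.53 for DCN and -0.0511 to 1.18 for MFAP5 in edgeR. In DESeq2 the folds that changed sign were -0.16 and -0.125 for PDGFRA (without high IMF replicate 2 and low IMF replicate 1), -0.15, -0.29 and -0.27 for DCN (without high IMF replicates 1 and 2 and low IMF replicate 1) and -0.0521 for MFAP5 (without high IMF replicate 1). Differences of log2 ratios to PDGFRA were -0.0754 to 0.52 for MFAP5 and -0.91 to 0.31 for TCF7L2. The cause was not tested. The stricter filter (an average of 1 CPM or more, with 10 reads or more in 3 libraries) left out DPP4, whose 10 to 87 reads limit what can be said of it.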

Other observations

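The genes whose reads kept the most constant ratio to those of PDGFRA over the 6 libraries were listed after the values were seen, with no test. After DCN came the kinase gene CAMKK1 (range of the log2 ratio 0.48), the protease inhibitor gene SERPINA3 (0.49), the adhesion protein gene SVEP1 (0.57), the cyclin gene CCND2 (0.58) and FBLN5 (0.62), a protein of elastic fibres. FBLN5 had 1779, 2127 and 320 reads in high IMF muscle and 690, 1318 and 1215 in low IMF muscle, and SVEP1 1098, 1655 and 121 against 278, 644 and 943 reads. The mesenchymal transcription factor FOXF1, in 10th place with a range of 0.72, rests on 11 to 84 reads a library. Some of the first 12 places went to genes of fewer reads, such as MYL5 (11th, 2 to 23 reads) and SEMA3E (12th, 2 to 26 reads), whose ratios carry a large counting error.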
